A study of Mus musculus with 3 samples.

Results

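The natriuretic peptide system was followed through the non-cardiomyocytes (non-CMs) of the pressure-overloaded mouse heart by its 5 core genes, the peptides Nppa and Nppb and the receptors Npr1, Npr2 and Npr3. The 5 genes were taken by name from the 27998 genes of the count tables. The hearts came from wild-type C57BL/6J JCL male mice that were 8 weeks old at transverse aortic constriction (TAC), an operation that narrows the aortic arch and loads the left ventricle. The 3 libraries were a healthy control without TAC (0 weeks), adaptive hypertrophy (2 weeks of TAC) and heart failure (12 weeks of TAC), and all of them hold ventricular cells, since the atria were cut away, enriched for non-CMs on Percoll. Each phase was 1 library and the number of hearts in it is not given in the sources used here, so that phase and library cannot be told apart and no test between phases was possible.

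Atrial natriuretic peptide (Nppa) and B-type natriuretic peptide (Nppb) are hormones of cardiomyocytes, and their transcripts rise in loaded ventricular muscle, where they serve as markers of hypertrophy and failure. Both peptides bind Npr1, a membrane guanylyl cyclase that makes cyclic GMP and thereby relaxes vessels and restrains fibroblast growth. Npr2 is the sister cyclase for C-type natriuretic peptide (Nppc), a local peptide of vessels and connective tissue. Npr3 has no cyclase domain and takes up the peptides for breakdown, and it is a known marker of the endocardium.

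Nppa and Nppb are neighbouring genes on mouse chromosome 4, in the same orientation. In GRCm38, Nppb (ENSMUSG00000029019) lies at chr4:147985788-147987205 and Nppa (ENSMUSG00000041616) at chr4:148000722-148002079, both on the plus strand and 13516 bases apart. Npr1 (ENSMUSG00000027931) lies at chr3:90450591-90465866 on the minus strand, Npr2 (ENSMUSG00000028469) at chr4:43631935-43651244 on the plus strand and Npr3 (ENSMUSG00000022206) at chr15:11839896-11907287 on the minus strand. The 250 bases before the RefSeq start of Nppa are shown (GRCm38.p6, plus strand, chr4:148000472-148000721), because Nppa is the member with the largest ratio between libraries. The matching Nppb window, chr4:147985650-147985899, overlaps the first exon of Nppb in GENCODE, is not shown and is described by its matches.
Nppa: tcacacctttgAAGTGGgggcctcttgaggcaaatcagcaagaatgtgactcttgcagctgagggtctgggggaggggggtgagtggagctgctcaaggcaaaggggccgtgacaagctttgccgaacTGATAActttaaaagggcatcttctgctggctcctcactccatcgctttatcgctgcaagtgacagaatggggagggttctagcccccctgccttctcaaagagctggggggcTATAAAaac
Capitals mark matches, on either strand, to letters known from cardiac promoters, and no match overlaps another. A GATA motif was searched as AGATAA, which 9.99% of 32851 RefSeq promoter windows of the same length held. It was also searched as TGATAA, which 7.94% of the windows held. The M-CAT motif was searched as CATTCC and stood in 12.6% of the windows. An NKX-type motif was searched as AAGTGG and stood in 14.1%. The TATA box was searched as TATAAA and stood in 12.4%. The Nppa window held the latter GATA form, the NKX-type motif and the TATA box, and the Nppb window held both GATA forms, the M-CAT motif on the opposite strand and the TATA box. These are letter matches and nothing about binding was measured.

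After removal of cells with fewer than 200 genes, 3892 healthy, 2231 adaptive hypertrophy and 792 heart failure cells remained, with medians of 2589, 1495 and 1434 unique molecular identifiers (UMIs, counted transcript molecules). Cells were sorted by the sum of gate markers into 3134 endothelial cells (ECs), 1516 fibroblasts (FBs), 552 mural cells (smooth muscle cells and pericytes), 1327 blood cells (BCs) and 68 neural cells, and 318 cells stayed ungated. Marker lists kept out of the gates followed the names, with EC check markers at 25989 CPM (UMIs per 1000000 UMIs of the class) in ECs and 425 CPM in FBs, and FB check markers at 46213 CPM in FBs and 462 CPM in ECs. Mural, blood and neural check markers were at 3129, 2582 and 4824 CPM in their own classes. Mural cells also held EC check markers at 4318 CPM, in 89.3% of cells, above the level of their own list. Neural cells held FB check markers at 3103 CPM, in 98.5% of cells, and FBs held neural check markers at 533 CPM, in 71.1%. The mural and neural classes were thus not free of EC and FB transcripts. The pairs of libraries shared 5, 1 and 3 cell barcodes. ECs made up 1113, 1724 and 297 cells of the 3 libraries in phase order, and FBs 1228, 98 and 190. Levels are pooled over the cells of a class, and every interval given is an exact 95% interval that covers counting error only.

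The peptide transcripts were rare in non-CMs. Nppa gave 4 UMIs in the healthy library, 35 in adaptive hypertrophy and 0 in heart failure, and the 39 UMIs lay in 38 cells. In ECs, Nppa was at 2, 31 and 0 UMIs, or 0.608 CPM (0.0736 to 2.20), 9.29 CPM (6.31 to 13.2) and 0 CPM with a limit of 6.31 CPM set by 3 counts. Of the other classes in adaptive hypertrophy, mural cells held 2 Nppa UMIs and BCs 1, and FBs and neural cells held 0. ECs thus held most Nppa UMIs, but per UMI of their class their 9.29 CPM was 1.15 times (0.292 to 9.91) the 8.08 CPM of mural cells in that library. Over all cells, Nppa was 24.1 times higher (8.61 to 93.3) in adaptive hypertrophy than in the healthy library.

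Nppb gave 7, 10 and 2 UMIs in the healthy, adaptive hypertrophy and heart failure libraries, in 18 cells. ECs held 5, 10 and 0 of them, FBs 1, 0 and 0, mural cells 0, 0 and 1, and BCs and neural cells none in any library. In ECs, Nppb was at 1.52 CPM (0.493 to 3.55) in the healthy library and 3.00 CPM (1.44 to 5.51) in adaptive hypertrophy, a ratio of 1.97 (0.614 to 7.35) whose interval includes no change. No cell held UMIs of both peptides, and no cell held more than 2 UMIs of either.

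Transcripts of CMs themselves were present in every class, so the peptides were set beside them. A list of 12 CM genes (Myh6, Myl2, Myl3, Tnnt2, Tnni3, Tnnc1, Actc1, Mb, Pln, Ckm, Ttn and Tcap) summed to 768 CPM in ECs, 558 CPM in mural cells, 58.1 CPM in FBs, 61.6 CPM in BCs and 37.6 CPM in neural cells. In mural cells 745 of the 1136 UMIs of the list were Pln, a gene that smooth muscle is also known to express, and 1 of the 12 genes was at 0. In the adaptive hypertrophy library ECs held 74.7% of all UMIs, 88.6% of the Nppa UMIs and 88.5% of the CM-list UMIs. Nppa per 100 CM-list UMIs was 1.36 (0.923 to 1.93) in ECs of that library, 1.13 (0.137 to 4.08) in mural cells and 5.56 (0.141 to 31.0) in BCs, the last on 1 UMI. Per CM-list UMI, Nppa in ECs was 0.964 times (0.301 to 4.93) that in the other classes together, and with Tnnt2, Pln and Tcap left out of the list, a choice made after their mural levels were seen, it was 0.290 times (0.0904 to 1.48). On this shorter list mural cells were at 7.69 (0.932 to 27.8) per 100 on 2 UMIs and ECs at 1.61 (1.09 to 2.28). Mural cells were then 4.70 times (0.545 to 18.4) the other classes together. No class stood out beyond counting error for Nppa relative to CM transcripts, and no expression of Nppa by ECs is read from these UMIs. Nor did a class stand out for Nppb in the healthy library, where FBs were at 0.391 (0.00989 to 2.18) per 100 CM-list UMIs on 1 UMI and ECs at 0.163 (0.0530 to 0.381). In adaptive hypertrophy ECs were at 0.438 (0.210 to 0.806). The other classes held 0 Nppb UMIs among 16 to 177 CM-list UMIs in FBs, mural cells and BCs. These were too few to decide whether ECs stood out, as the ratio of ECs to the other classes had a lower limit of 0.209 and no finite value.

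**Figure D1:**
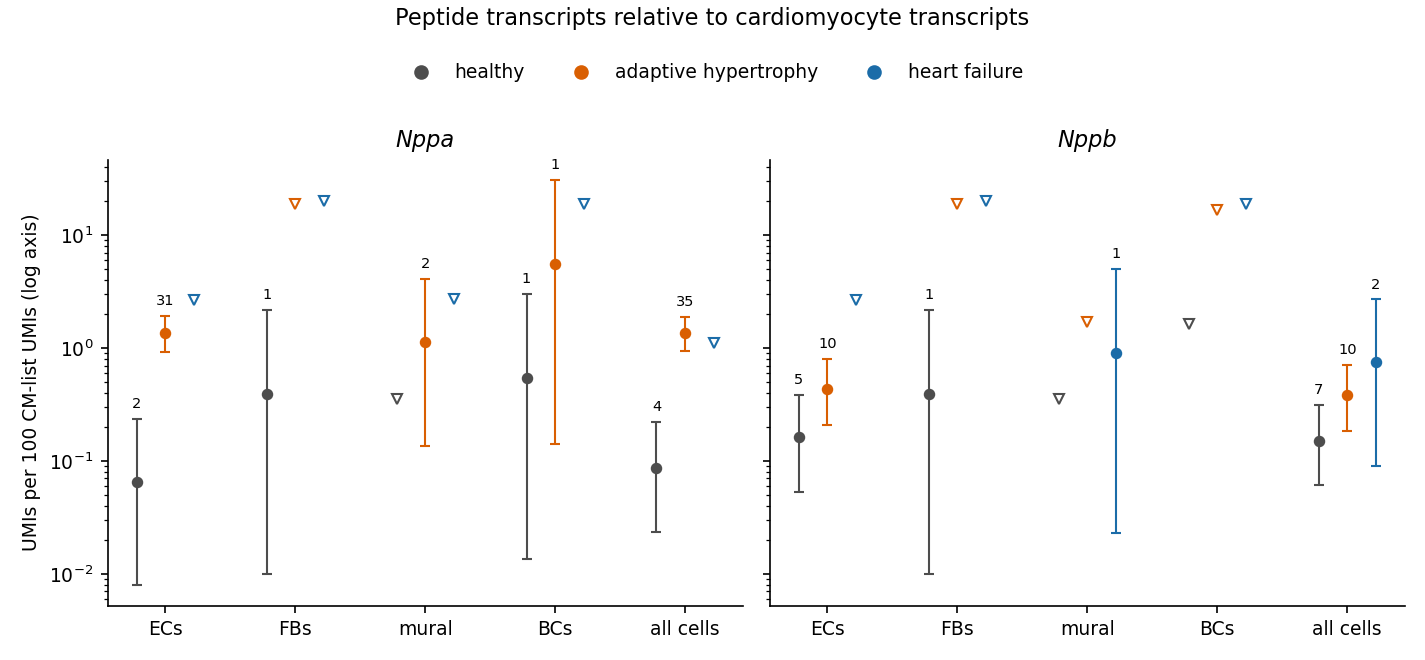
Nppa (left) and Nppb (right) UMIs per 100 UMIs of the 12-gene CM list, on a log axis, by cell class and in all cells of each library. Points are pooled values with exact 95% intervals of counting error, the number above each is its peptide UMIs, and open triangles mark the limit set by 3 counts where no UMI was found. For Nppa in all cells, adaptive hypertrophy lies above healthy with intervals that do not overlap. Within adaptive hypertrophy ECs and mural cells lie at like values on this list. With Tnnt2, Pln and Tcap left out, which is not drawn, mural cells were at 7.69 on 2 UMIs and ECs at 1.61.

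Relative to CM transcripts, Nppa differed between the libraries. Over all cells it was at 0.0864 (0.0235 to 0.221) per 100 CM-list UMIs in the healthy library and 1.36 (0.945 to 1.89) in adaptive hypertrophy, which is 15.7 times higher (5.62 to 60.8). The ratio was 6.59 after thinning to 1000 UMIs per cell and 10.9 as a mean over cells. In ECs alone the ratio was 20.8 (5.29 to 179). With Tnnt2, Pln and Tcap left out of the list the ratio over all cells was 13.1 (4.67 to 50.6). The heart failure library held 0 Nppa UMIs among 268 CM-list UMIs, which allows up to 1.12 per 100 and so reaches into the interval of adaptive hypertrophy. On the list without Tnnt2, Pln and Tcap it was 0 among 130 UMIs. That allows up to 2.31 per 100, above the 1.71 of adaptive hypertrophy on the same list. Nppb per 100 CM-list UMIs was 0.151 (0.0608 to 0.311) in the healthy library, 0.388 (0.186 to 0.713) in adaptive hypertrophy and 0.746 (0.0904 to 2.70) in heart failure. The Nppb ratio of adaptive hypertrophy to healthy was 2.56 (0.881 to 7.94), and that of heart failure was 4.94 (0.501 to 25.9) on 2 UMIs.

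The cells with peptide UMIs were in part those with CM transcripts. The 886 cells with at least 3 CM-list UMIs were 12.8% of cells and held 18.7% of UMIs, and they contained 12 of the 39 Nppa UMIs and 12 of the 19 Nppb UMIs. Mural cells, where most UMIs of the list were Pln, made up 167 of these cells, and the shorter list was not used for this count. Of the Nppa UMIs, 11 lay in cells with no CM-list UMI at all, which held 59.3% of UMIs. Within the adaptive hypertrophy library, cells with at least 3 CM-list UMIs held 21.96% of UMIs and 11 of the 35 Nppa UMIs. Among ECs of the 3 libraries such cells held 32.5% of UMIs, 11 of the 33 Nppa UMIs and 10 of the 15 Nppb UMIs. Nppa was at 4.76 CPM in these ECs and 4.59 CPM in the others. The same levels in ECs of adaptive hypertrophy alone were 12.02 and 8.38 CPM. Atrial muscle genes (Myl7, Myl4, Sln and Bmp10) gave 39 UMIs in ECs, 61 in FBs, 36 in mural cells, 9 in BCs and 0 in neural cells. Bmp10 was at 0 in every class, and 26 atrial-list UMIs, 23 of them Myl7 and 21 of them in 1 cell, lay in heart failure FBs, where Nppa and Nppb were at 0 UMIs.

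Npr1, the cyclase receptor of both cardiac peptides, was highest in ECs. Pooled over the libraries, it was at 70.7 CPM (64.6 to 77.1) in ECs, 30.8 CPM (26.1 to 36.1) in FBs, 19.7 CPM (14.05 to 26.8) in mural cells and 4.78 CPM (2.78 to 7.65) in BCs, and no UMI was found in 68 neural cells. Each step of this pooled order down to BCs was larger than counting error, with ECs 2.29 times (1.91 to 2.77) above FBs, FBs 1.57 times (1.10 to 2.28) above mural cells and mural cells 4.11 times (2.28 to 7.74) above BCs. The libraries differ in their mix of classes, and within them ECs were 3.44 (2.31 to 5.31), 2.23 (1.16 to 4.93) and 3.73 times (1.19 to 18.9) above mural cells in phase order. The step from FBs to mural cells did not hold in every library, at 1.41 (0.920 to 2.24), 0.730 (0.231 to 2.20) and 3.49 (1.12 to 17.5). Mural cells also held EC check markers at 4318 CPM, against 25989 CPM in ECs and 425 CPM in FBs. The part of EC transcripts in the mural Npr1 level was not tested. At least 1 Npr1 UMI was found in 13.5% of ECs, 8.05% of FBs and 1.21% of BCs, at median depths of 1780.5, 2820.5 and 2408 UMIs. After thinning to 1000 UMIs per cell the shares were 7.03%, 2.73% and 0.493%. Pooled over the libraries, Npr1, Npr3 and Nppa were at least 2-fold above each other class in ECs, a property that 4.99% of 13071 genes had, and Npr2 was not. Within adaptive hypertrophy alone Nppa was not 2-fold above mural cells, and against the limit of 3 counts in the 68 neural cells the pooled ratios of Npr3 and Nppa were 1.42 and 0.206, so that neither is bounded above neural cells by 2-fold.

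**Figure D2:**
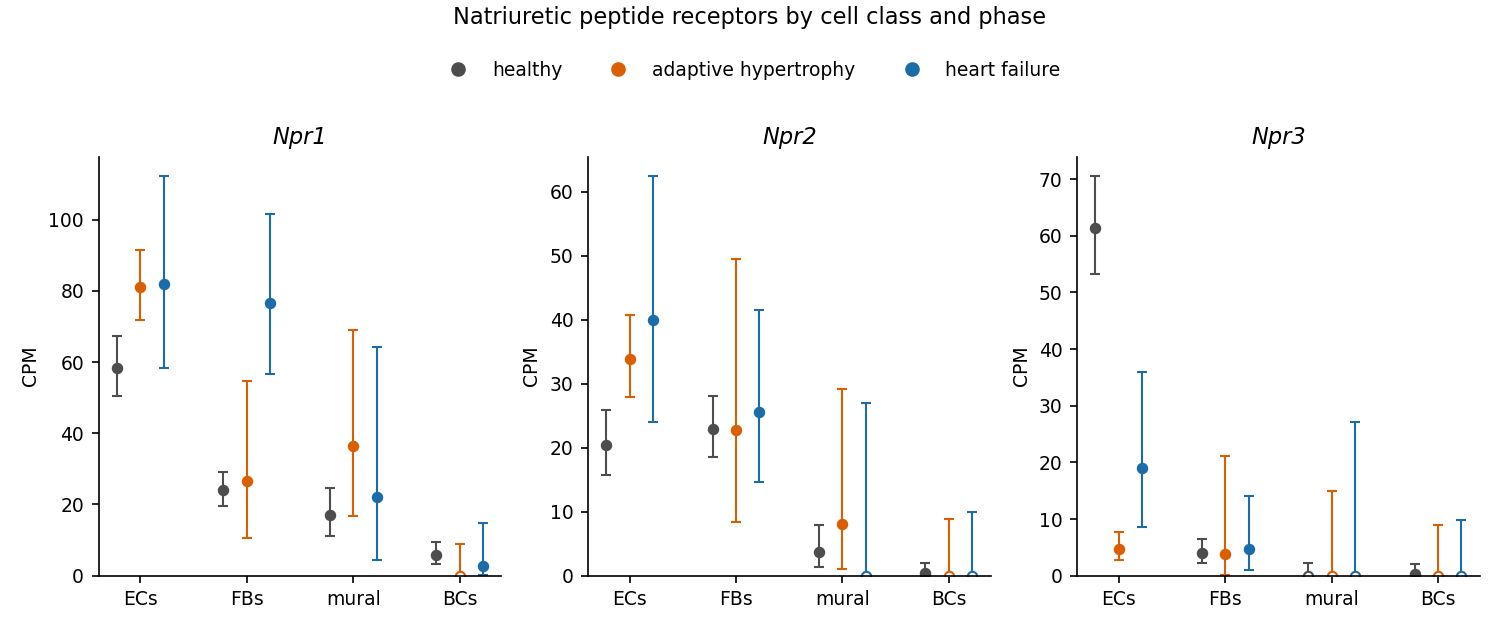
CPM of Npr1, Npr2 and Npr3 in ECs, FBs, mural cells and BCs of the healthy, adaptive hypertrophy and heart failure libraries. Points are pooled over the cells of 1 library with exact 95% intervals of counting error, and open points are 0 UMIs. Npr1 in FBs stands at 76.7 CPM in heart failure against 24.0 CPM in the healthy library, and Npr3 in ECs at 4.79 CPM in adaptive hypertrophy against 61.4 CPM in the healthy library.

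FBs held more Npr1 in heart failure. It was at 24.0 CPM (19.4 to 29.2) in the healthy library, 26.6 CPM (10.7 to 54.7) in adaptive hypertrophy and 76.7 CPM (56.6 to 102) in heart failure. Heart failure was 3.20 times (2.22 to 4.57) the healthy level, on 48 UMIs in 33 of 190 cells against 97 UMIs in 83 of 1228 cells. The adaptive hypertrophy value rests on 7 UMIs. A gain of at least 2-fold was seen for 6.89% of 10133 genes in this comparison. After thinning, 2.52% of healthy and 5.49% of heart failure FBs held an Npr1 UMI. In heart failure FBs and ECs stood at like levels, with an EC to FB ratio of 1.07 (0.683 to 1.67), against 2.43 (1.90 to 3.14) in the healthy library.

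The level of Npr1 differed among FBs. FBs with markers of activation (Postn, Cilp, Thbs4, Cthrc1) or of valve-like cells (Wif1, Comp, Chad, Fmod) together held 51.0 CPM in the healthy library, 2.71 times (1.72 to 4.18) the 18.8 CPM of the other FBs. In heart failure the former were at 182 CPM and the latter at 39.1 CPM, a ratio of 4.65 (2.51 to 8.86). Both parts were higher in heart failure than in the healthy library, by 3.57 times (2.10 to 6.03) in the activated and valve-like FBs, on 30 UMIs in 38 cells, and by 2.08 times (1.16 to 3.55) in the others, on 18 UMIs in 152 cells. Adventitial-like FBs (Pi16, Cd248, Dpp4, Sema3c) were at 20.2 CPM in the healthy library and 64.1 CPM in heart failure, a ratio of 3.17 (1.42 to 6.40) on 10 UMIs. EC check markers in heart failure FBs were at 0.823 (0.713 to 0.946) of healthy. With the EC gate markers added, they summed to 549 CPM in healthy FBs and 534 CPM in heart failure FBs, so the lists did not move alike. Npr1 per 1000 such UMIs was 43.6 in healthy FBs and 144 in heart failure FBs, against 2.24 and 2.71 in the ECs of those libraries. In FBs with none of these UMIs, Npr1 was at 16.2 CPM (10.0 to 24.7) in 481 healthy cells and 94.6 CPM (43.3 to 180) in 55 heart failure cells, a ratio of 5.86 (2.36 to 13.3). The 27 such cells of adaptive hypertrophy stood at 84.9 CPM (23.1 to 217) on 4 UMIs, 5.25 times (1.31 to 15.6) the healthy level. All FBs of that library were at 1.11 times (0.434 to 2.37) healthy, so the subset did not follow the class there. The cells without EC UMIs were not matched for depth between libraries. BC check markers in FBs went from 24.7 CPM in the healthy library to 47.9 CPM in heart failure, and the CM list from 63.3 to 24.0 CPM. The part of EC, BC and CM transcripts in the Npr1 result was not tested.

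**Figure D3:**
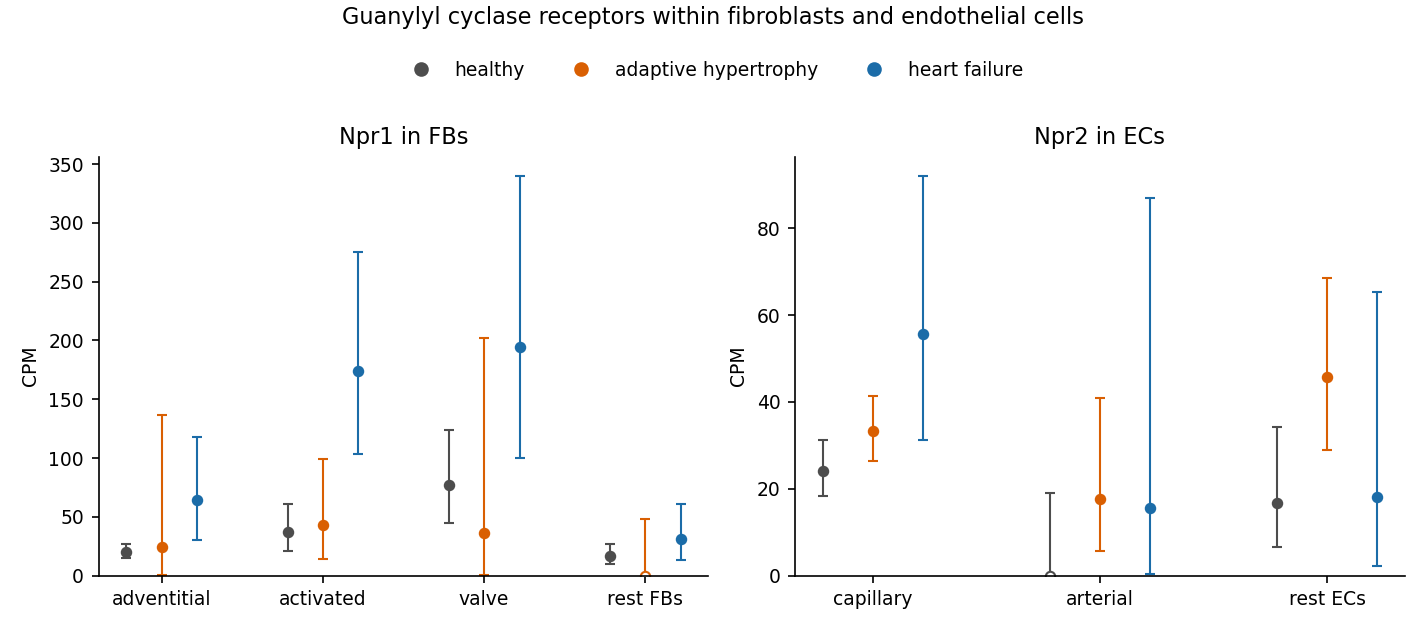
Npr1 CPM in FB subclasses (left) and Npr2 CPM in EC subclasses (right) of the 3 libraries, with exact 95% intervals of counting error and open points for 0 UMIs. Npr1 in heart failure reaches 174 CPM in activated and 194 CPM in valve-like FBs, and Npr2 in capillary-like ECs goes from 24.2 through 33.3 to 55.7 CPM.

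In ECs Npr1 was at 58.3 CPM (50.4 to 67.2) in the healthy library, 81.2 CPM (71.8 to 91.5) in adaptive hypertrophy and 82.0 CPM (58.3 to 112) in heart failure. The ratio to healthy was 1.39 (1.15 to 1.68) in adaptive hypertrophy and 1.41 (0.970 to 1.99) in heart failure, of which the latter includes no change. EC check markers in ECs stood at 1.52 (1.51 to 1.54) and 1.14 (1.11 to 1.16) of healthy, FB check markers at 0.0950 in adaptive hypertrophy, and the CM list at 0.735 in adaptive hypertrophy and 0.253 in heart failure, and their part in this result and in that of Npr2 was not tested. Capillary-like ECs gave the like ratios of 1.46 (1.16 to 1.84) and 1.51 (0.914 to 2.38). Venous-like ECs of the healthy library were at 165 CPM, 3.05 times (1.49 to 5.65) the capillary level, on 11 UMIs in 22 cells, whereas in adaptive hypertrophy the ratio was 1.15 (0.417 to 2.55) in 35 cells and pooled it was 1.99 (1.18 to 3.15). Arterial-like ECs did not differ from capillary-like ones beyond counting error, at a pooled ratio of 1.01 (0.699 to 1.42). Mural cells were at 17.0, 36.4 and 21.99 CPM on 28, 9 and 3 UMIs, with an adaptive hypertrophy ratio of 2.14 (0.890 to 4.67). EC check markers in mural cells stood at 1.44 (1.36 to 1.53) of healthy in adaptive hypertrophy and 0.918 (0.838 to 1.00) in heart failure. Their part in the mural values was not tested.

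Npr2, the receptor of C-type natriuretic peptide, was shared by ECs and FBs. Pooled, it was at 28.0 CPM (24.3 to 32.2) in ECs and 23.3 CPM (19.2 to 28.0) in FBs, a ratio of 1.20 (0.951 to 1.53). Neural cells were at 22.5 CPM (4.65 to 65.9) on 3 UMIs, which did not separate them from either. Mural cells were at 3.93 CPM (1.70 to 7.75), with FBs 5.92 times (2.91 to 14.05) higher, and BCs held 1 UMI in 1327 cells. A UMI of Npr2 was present in 6.06% of ECs and 6.93% of FBs, against 0.0754% of BCs, and after thinning in 2.57%, 2.73% and 0.0822%.

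Among ECs, Npr2 was higher in capillary-like than in arterial-like cells. It was at 30.2 CPM in capillary-like and 11.1 CPM in arterial-like ECs, a ratio of 0.367 (0.133 to 0.816) of arterial to capillary on 6 UMIs. The endocardial-like and venous-like ECs held 1 UMI each. In ECs as a whole, Npr2 was at 20.4 CPM (15.8 to 25.9), 33.9 CPM (27.9 to 40.7) and 40.0 CPM (24.1 to 62.4) in phase order. The ratio to healthy was 1.66 (1.22 to 2.28) in adaptive hypertrophy and 1.96 (1.11 to 3.31) in heart failure. In capillary-like ECs alone the ratios were 1.38 (0.971 to 1.96) and 2.30 (1.21 to 4.12). FBs gave 23.0, 22.8 and 25.6 CPM, with ratios to healthy of 0.991 (0.355 to 2.24) in adaptive hypertrophy and 1.11 (0.611 to 1.90) in heart failure.

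Npr3, the clearance receptor, was concentrated in few cells. ECs were at 32.0 CPM (27.9 to 36.4), FBs at 4.05 CPM (2.48 to 6.26) and BCs at 0.281 CPM on 1 UMI, and none was found in 552 mural or 68 neural cells. Pooled, ECs were 7.89 times (4.99 to 13.2) above FBs and at least 21.7-fold above mural cells, taking 3 counts over the mural class as the limit. By library the EC to FB ratio was 15.5 (9.33 to 27.7) in healthy, 1.26 (0.196 to 53.0) in adaptive hypertrophy and 3.95 (0.986 to 22.7) in heart failure, with an interval that excludes 1 in the healthy library alone. The 227 EC UMIs lay in 53 of 3134 cells, with up to 17 UMIs in a cell. At least 3 UMIs were found in 27 of the 44 positive ECs of the healthy library, whereas in FBs 15 of 16 positive cells held 1 or 2.

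Endocardial-like ECs, gated by Cytl1, Smoc1, Tmem108, Adgrg6, Hapln1, Foxc1 and Plvap, held Npr3 at 647 CPM (526 to 789) in 52 cells, against 1.36 CPM (0.548 to 2.81) in 2190 capillary-like ECs, a ratio of 475 (222 to 1212). Arterial-like and lymphatic-like ECs held no Npr3 UMI, in 282 and 38 cells. Venous-like ECs were at 99.01 CPM, from 14 UMIs in 3 cells. ECs that fell in no subclass were at 104 CPM, with 101 of their 108 UMIs in 17 healthy cells. Of the list, Hapln1 was at 0 in ECs, and since Plvap also marks other ECs a count without it, chosen after its values were seen, was used to look at these cells again. Cells with at least 3 EC gate UMIs and at least 3 UMIs of the reduced list held 215 of the 257 healthy Npr3 UMIs.

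**Figure D4:**
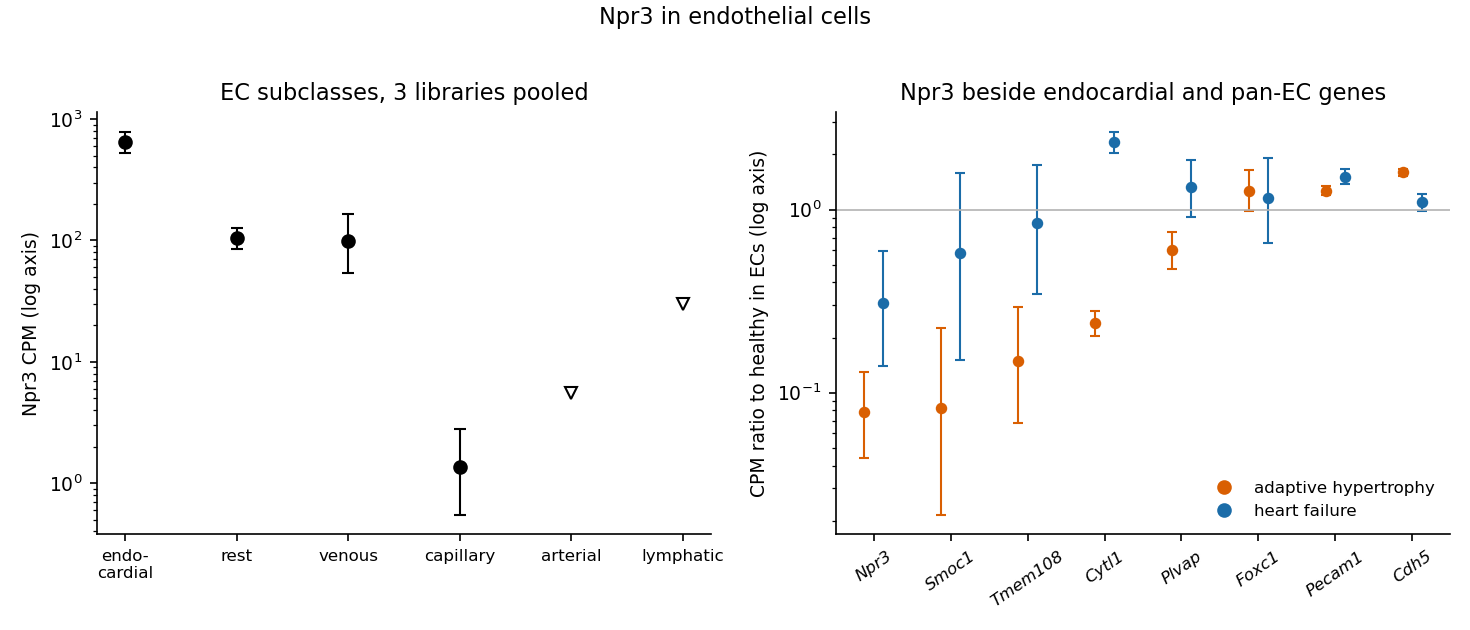
Left, Npr3 CPM in EC subclasses with the 3 libraries pooled, on a log axis, where open triangles mark the limit set by 3 counts for subclasses at 0 UMIs. Right, CPM ratio to the healthy library in ECs for Npr3, endocardial-list genes and the pan-EC genes Pecam1 and Cdh5, with exact 95% intervals of counting error, showing Npr3, Smoc1, Tmem108 and Cytl1 between 0.0781 and 0.239 in adaptive hypertrophy Plvap at 0.599, Foxc1 at 1.27 and Pecam1 and Cdh5 at 1.27 and 1.59.

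In ECs Npr3 was lower in both TAC libraries. It was at 61.4 CPM (53.2 to 70.5) on 202 UMIs in the healthy library, 4.79 CPM (2.74 to 7.78) on 16 UMIs in adaptive hypertrophy and 18.9 CPM (8.66 to 35.9) on 9 UMIs in heart failure. The ratios to healthy were 0.0781 (0.0438 to 0.130) and 0.308 (0.139 to 0.597). A loss of at least 2-fold was seen for 6.49% of 10398 genes in the former and 8.76% of 9418 genes in the latter comparison. After each cell was thinned to 1000 UMIs the ratios were 0.228 and 0.661, and with cells weighted equally the heart failure ratio was 0.660. FBs were at 3.95, 3.79 and 4.79 CPM, on 16, 1 and 3 UMIs.

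Fewer cells qualified as endocardial in adaptive hypertrophy. Endocardial-like ECs numbered 39, 4 and 9 among 1113, 1724 and 297 ECs in phase order. Npr3 within them was at 686 CPM (549 to 846), 1299 CPM (522 to 2676) and 209 CPM (56.8 to 534), the last 2 values each from 1 positive cell. Those 2 values were 1.89 times (0.739 to 4.07) and 0.304 times (0.0810 to 0.807) the healthy one. In ECs of adaptive hypertrophy the endocardial-list genes Smoc1 and Tmem108 were also lower, at 0.0822 (0.0215 to 0.224) and 0.149 (0.0685 to 0.292) of healthy, and Cytl1 at 0.239 (0.205 to 0.278), while Plvap was at 0.599 (0.476 to 0.753), Adgrg6 at 0.592 (0.0919 to 3.04) on 3 against 5 UMIs and Foxc1 at 1.27 (0.980 to 1.65). The pan-endothelial genes Pecam1 and Cdh5 were at 1.27 and 1.59. In heart failure Smoc1 and Tmem108 were at 0.577 (0.151 to 1.58) and 0.839 (0.348 to 1.75) Plvap at 1.32 (0.915 to 1.87) and Cytl1 at 2.33 (2.04 to 2.66) of healthy. By the reduced list, 100, 28 and 33 cells qualified, which is 2.57%, 1.26% and 4.17% of cells. Those among the ECs were 7.46%, 1.57% and 9.43% of ECs, so the share by this list was not lower in heart failure than in the healthy library. Npr3 within all qualifying cells was at 582 CPM (507 to 665), 73.7 CPM (29.6 to 152) and 32.7 CPM (8.90 to 83.6), with 7 and 4 UMIs in the TAC libraries, each in 1 cell. Npr3 was held by 41 of the 100 healthy cells, 1 of the 28 in adaptive hypertrophy (3.57%) and 1 of the 33 in heart failure (3.03%). Cytl1 gave more UMIs in ECs than any other gene of the reduced list, at 870, 211 and 293 in phase order. Smoc1 gave 48, 4 and 4, Tmem108 gave 66, 10 and 8, and Foxc1 gave 108, 139 and 18. In heart failure most UMIs of the list in ECs were thus Cytl1, which was itself higher there than in the healthy library. Its part in the count was not tested, so the heart failure share is not read as a share of endocardial cells. Fewer endocardial cells and less Npr3 per cell cannot be told apart in the EC totals.

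Few cells held UMIs of more than 1 receptor. In ECs, 32 cells held both Npr1 and Npr2 where the product of the shares gives 25.7, 11 held Npr1 and Npr3 where it gives 7.17, and 4 held Npr2 and Npr3 where it gives 3.21. In FBs, 9 cells held Npr1 and Npr2 against 8.45, 4 held Npr1 and Npr3 against 1.29, and none held Npr2 and Npr3 against 1.11. These counts were not adjusted for the depth of the cells.

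Across 38 groups of at least 20 cells, defined by subclass and library, the genes most like each receptor in log2(CPM + 1) were ranked among 9904 genes. For Npr1 these were Hyal2 (Pearson r of 0.84), a cell-surface hyaluronidase-family protein, Bvht (0.83), Fam118b (0.82), Ramp2 (0.82), the adrenomedullin receptor partner of ECs, and Plcb4 (0.81). For Npr2 they were Tril (0.84), Alg2 (0.82), Bok (0.77), F2r (0.76), the thrombin receptor, and Cd34 (0.76). For Npr3 they were H19 (0.82), Fam64a (0.63), Adh1 (0.63), Itpr2 (0.62) and Gpm6a (0.59). The Spearman rank correlations of the same genes ran from 0.64 to 0.86 for Npr1, from 0.69 to 0.79 for Npr2 and from 0.38 to 0.69 for Npr3. H19 was at 0.62 by rank. The groups share libraries and depth, so these values are descriptions of likeness without a test.

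The wider pathway was taken from a list of 25 genes, of which 21 were at least 2-fold higher in 1 class than in each other class, against 30% of 13071 genes. Mural cells led for 11, beside 4.29% of all genes. These were the nitric oxide-sensitive guanylyl cyclase subunits Gucy1a3 at 579 CPM, Gucy1b3 at 351 CPM and Gucy1a2 at 15.7 CPM, the cGMP-dependent kinases Prkg1 and Prkg2 and their substrate Mrvi1, the myosin phosphatase subunit Ppp1r12a, the phosphodiesterases Pde1b, Pde3a and cGMP-specific Pde5a, and the pro-peptide convertase Corin at 23.1 CPM against 2.11 CPM in ECs. The Prkg1 ratio of 2.01 (0.766 to 7.50) was to 4 UMIs of neural cells. Mural cells thus held the highest levels of the soluble cyclase and kinase genes, and no Npr3 UMI.

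FBs led for 5 pathway genes, beside 5.22% of all genes, and ECs for 1, beside 4.99%. The FB genes were Nppc at 8.91 CPM on 44 UMIs, Ostn, whose product musclin binds Npr3, with all 24 of its gated UMIs in FBs, the convertase Pcsk6 at 366 CPM, the peptide-degrading neprilysin Mme at 16.8 CPM and the cGMP-specific Pde9a at 21.3 CPM. Mme was 13.3 times (6.66 to 30.0) above ECs. The EC gene was the cGMP-stimulated phosphodiesterase Pde2a, at 124 CPM and 11.97 times (7.78 to 19.4) the next class. BCs led for the convertase Furin at 178 CPM, the G-protein regulator Rgs2 at 226 CPM and Pde3b at 30.1 CPM, beside 6.73% of all genes, and neural cells for Pde1c on 1 UMI, beside 8.79%. The other 4 genes, Ide, Dpp4, Vasp and Pde1a, led by less than 2-fold.

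**Figure D5:**
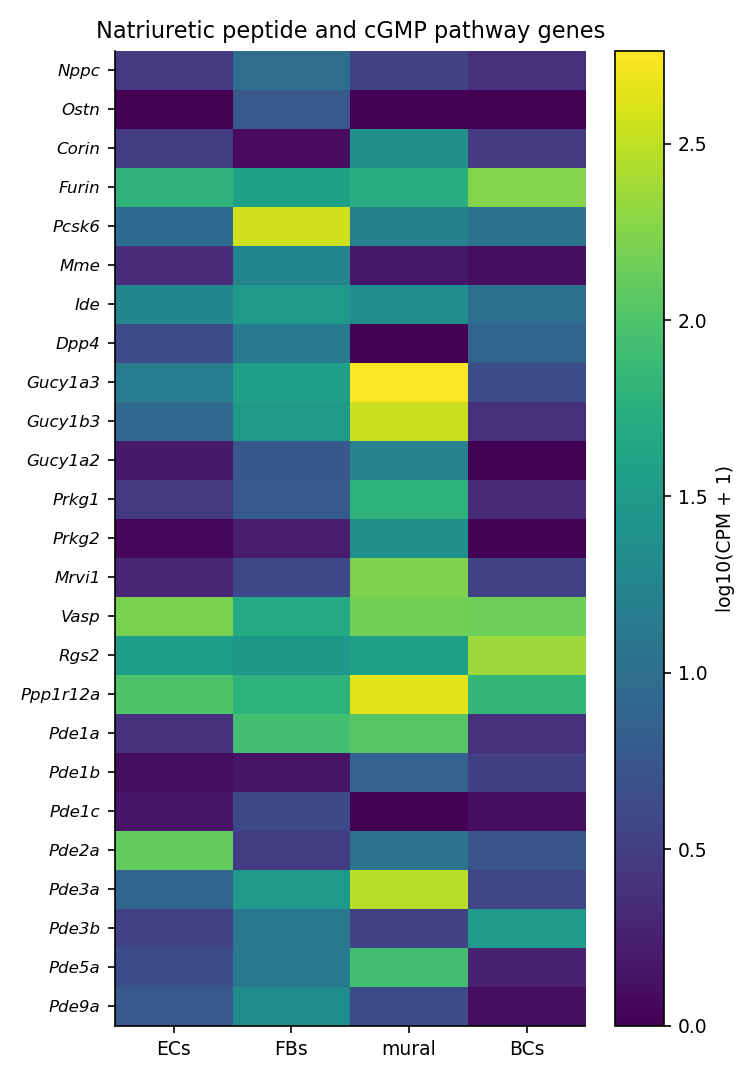
log10(CPM + 1) of the 25 pathway genes (rows, grouped as ligands, processing enzymes, soluble cyclase, cGMP effectors and phosphodiesterases from top to bottom) in 4 cell classes with the libraries pooled. Gucy1a3, Gucy1b3, Ppp1r12a and Pde3a are brightest in mural cells, Pcsk6 in FBs, Pde2a in ECs and Rgs2 in BCs.

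Between phases, the list gave 111 gene and class comparisons with at least 20 UMIs against the healthy library, of which 5 were at least 2-fold higher and 31 at least 2-fold lower, and 19 of the 36 had an interval that excludes no change. Over the same 8 comparisons 8.6% of all tested genes were higher and 11.6% lower. The minimum of 20 UMIs is summed over both libraries. In the healthy group alone 106 of the 111 comparisons reached it, against 40 in the TAC group alone. Of the 31 lower ones, 28 held fewer than 20 UMIs in the TAC group and 10 held 0. The healthy group was the larger in UMIs except against adaptive hypertrophy in ECs, at 3290868 against 3337651 UMIs. Nothing is therefore read from the split by direction, here or in the single comparisons that follow. In ECs of adaptive hypertrophy, 6 of 13 tested genes were lower and none higher, beside 6.49% of all genes lower and 3.98% higher. The median ratio of the 13 genes that passed this filter was 0.548, beside a median log2 ratio of 0.01 over all genes. It is not read as a fall of the pathway. Of the 6 lower genes, Pcsk6 was at 0.370 (0.190 to 0.684) of healthy, Dpp4 at 0.0896 (0.0102 to 0.365), Gucy1a3 at 0.219 (0.119 to 0.380), Gucy1b3 at 0.129 (0.0449 to 0.302) and Pde3a at 0.0896 (0.0234 to 0.246), all between 6.69 and 21.9 CPM in healthy ECs. FB check markers in ECs were lower as well, at 0.0950 (0.0830 to 0.108) of healthy, whereas mural check markers were at 1.56 (1.39 to 1.75), and their part in the result was not tested. Pde2a in ECs was at 1.80 (1.55 to 2.08) of healthy in adaptive hypertrophy and 1.49 (1.11 to 1.96) in heart failure, short of 2-fold. In heart failure ECs, 3 of 11 genes were lower and none higher, beside 8.76% and 9.22% of all genes, and of them Pde3a, at 0 against 44 UMIs, had an interval that excludes no change, with an upper limit of 0.605.

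In heart failure FBs, 5 of 19 pathway genes passed 2-fold. Rgs2 was at 2.01 (1.31 to 3.01) of healthy, Pcsk6 at 0.420 (0.342 to 0.510), and Nppc, the ligand of Npr2, was at 0 against 44 UMIs with an upper limit of 0.566, beside the higher Npr1 of the same cells. Of all genes, 7.08% were lower and 6.89% higher in this comparison. In adaptive hypertrophy FBs, 5 of 19 genes were lower and none higher, beside 14% and 10.1% of all genes, of which Pcsk6 at 0.332 (0.232 to 0.462) and Ppp1r12a at 0.239 (0.0646 to 0.619) had intervals that exclude no change. In mural cells of adaptive hypertrophy, Gucy1a3 was at 0.474 (0.369 to 0.600), Rgs2 at 0.286 (0.0576 to 0.871) and Prkg2 at 2.22 (1.01 to 4.51), beside 12.5% of all genes lower and 6.1% higher, and in those of heart failure Pde1a was at 0.313 (0.101 to 0.744) beside 19.8% of all genes lower. In BCs, Furin was at 2.21 (1.82 to 2.67) in adaptive hypertrophy, Rgs2 at 2.37 (1.98 to 2.82) in heart failure, beside 10.8% and 14.3% of all genes higher. In BCs EC check markers were at 2.51 (2.21 to 2.84) and 0.994 (0.818 to 1.20) of healthy in adaptive hypertrophy and heart failure, and FB check markers at 0.320 (0.264 to 0.385) and 1.24 (1.11 to 1.38), and their part in the BC values was not tested. Pcsk6 in BCs was at 0 against 36 UMIs in each, with upper limits of 0.719 and 0.801, beside 14.3% and 12.5% of all genes lower.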

How the data were processed

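Ventricular non-CMs were measured in 1 library for each of 3 phases with droplet-based 3' single-cell RNA-seq. The submitters' processing notes name Cell Ranger 2.0.0 and the build mm10, and the authors deposited raw counts per gene and cell without normalization. The gene and barcode lists only name rows and columns. The members and gene lists were chosen with earlier results of these data known.

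A minimum of 200 detected genes per cell took out 8, 8 and 10 cells. A cell took the class with the highest gate-marker sum if it was at least 3 UMIs and at least 2 times the next, and a subclass with a sum of at least 2 UMIs and at least 2 times the next. The 5 members were in no list, and Dpp4 was both a pathway gene and an adventitial marker. Of 318 ungated cells, 183 were under the minimum and 135 held markers of different classes. Those 135 were left out in place of a doublet caller. Within 1 UMI of the class gate lay 507 cells. Levels are pooled CPM with exact Poisson intervals, ratios have exact conditional binomial intervals, and shares Clopper-Pearson intervals, all at 95%, for counting error only. A level of 0 was given the limit of 3 counts. Total counts per library were 12287823, 4465929 and 1712728 UMIs, so that 3 counts are 0.244, 0.672 and 1.75 CPM of a whole library. Thinning to 1000 UMIs left out 0, 606 and 268 shallower cells. With 1 library per phase no p-value was computed, and at least 2-fold, with at least 20 UMIs over the groups compared, stood for a call. Named were the members, pathway genes at least 2-fold above each other class or past 2-fold between phases with an interval that excludes 1, and for each receptor the 5 most alike genes among those with at least 100 UMIs. Pde2a and Foxc1, Pecam1 and Cdh5 between phases were added after their values were seen. Epicardial markers were at 57.7 CPM in FBs and 2.67 CPM in ECs, erythroid markers at 476 CPM in ECs and 1761 CPM in mural cells, and platelet markers at 2659 CPM in BCs and 53.8 CPM in ECs. Analyses used Python 3.11.15, numpy 2.4.6, scipy 1.17.1, pandas 2.3.3 and matplotlib 3.10.9, and scripts were tested on simulated counts. Coordinates come from GENCODE for GRCm38, and RefSeq promoters (GRCm38.p6) matched 5 of 5 members. The alternatives changed scaling, cell filters, gates, the CM list, count minimum or depth.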

Additional observations from a re-analysis of the deposited data

Results flagged for a closer look

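The ungated cells, which entered no class comparison, held member UMIs above the limit of 3 counts. Npr3 was at 84.3 CPM (59.6 to 116) on 38 UMIs in the 119 ungated healthy cells. Over the libraries, 39 Npr3 UMIs lay in 11 ungated cells, and 36 of them lay in cells with at least 3 EC and at least 3 FB gate UMIs. Npr1 in ungated cells was at 35.5 CPM in the healthy library, 93.3 CPM in adaptive hypertrophy and 74.6 CPM in heart failure, on 16, 16 and 6 UMIs. Npr2 was at 8.87 CPM in the healthy library and 29.2 CPM in adaptive hypertrophy, on 4 and 5 UMIs.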

How the results depend on the processing

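Of 187 values recomputed under alternative settings, 175 stayed within the interval of the reported value (or within 1.5 times for counts), and 12 moved outside it. No value whose interval excluded 1 turned to the other side of 1. Some values could hardly move, since the Nppa ratio over all cells does not use the gates. Wide intervals, such as 0.143 to 93.5 for healthy Nppa per CM UMI in BCs over the other classes, hold almost any value. Of the values whose interval included 1, 7 crossed it. For Nppa per CM UMI in adaptive hypertrophy ECs over the other classes they were 1.24 as a mean over cells, 1.02 with at most 10% mitochondrial UMIs and 1.28 with the study's 14 crude markers, and the other 4 are among the values below. Thinning to 1000 UMIs moved the EC to FB ratio of Npr2 to 0.910, the Npr3 ratios to healthy in ECs to 0.228 (adaptive hypertrophy) and 0.661 (heart failure), healthy Nppa per CM UMI in BCs over the other classes to 0 and the pathway genes past 2-fold between phases from 36 to 15. The mean over cells moved the EC ratio of Npr2 in adaptive hypertrophy to 2.33 and that of Npr3 in heart failure to 0.660. The study's 14 crude markers moved Nppa per CM UMI in BCs over the other classes to 0 in the healthy and adaptive hypertrophy libraries. A filter of 1 UMI gave 89 pathway genes between phases and one of 50 UMIs gave 15. Without Tnnt2, Pln and Tcap, an alternative added after seeing the data, Nppa per CM UMI in ECs over the other classes was 0.290. Apart from these, the cause of which was not tested, the Npr1 ratio of heart failure to healthy FBs ranged from 2.42 to 3.85, a set of alternatives also added afterwards, and the EC to FB ratio of Npr1 from 2.17 to 2.66 and of Npr3 from 5.07 to 12.7. Nppb per CM UMI in adaptive hypertrophy and heart failure gave no finite ratio between classes.

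No paired analysis was possible because each phase is 1 library, and no library could be left out for the same reason. Depth limits Nppa, Nppb and Npr3 in heart failure most, since they rest on 0, 2 and 12 UMIs there.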
